A study of Mus musculus with 12 samples.

Results

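The genes described here are the histone genes, measured in mouse tumour cells called MP that model Myc-driven medulloblastoma, a childhood cancer of the cerebellum. They were chosen by name: every probe set of the array whose annotated gene symbol starts with a current or older form of a clustered histone gene name, of a linker histone (H1f) or of H3.3 (H3f3). This gave 76 of the 41345 probe sets in the value table. Of these, 31 name 1 gene, 42 name several histone genes that their probes cannot tell apart, and 3 name 1 histone gene beside another gene. In 3 cases the values repeat those of another histone probe set exactly, so that 73 are distinct. The cells came from 3 tumours (MP525, MP567 and MP570) grown in NSG mice (immunodeficient hosts), isolated from their cerebella, and were grown as dissociated cells in neurocult media with a proliferation supplement. They received 25 nM LBH589 (panobinostat, an inhibitor of histone deacetylases) or 0.00025% DMSO, its solvent, and were lysed after 6 or 12 h. The 4 groups were LBH589 at 6 h, LBH589 at 12 h, DMSO at 6 h and DMSO at 12 h, each with 3 Affymetrix Mouse Gene 2.0 ST arrays, 1 per tumour. The allele that makes the tumours, the age of the mice and any pooling are not given in the sources used here. Nothing in the labels says that arrays of a tumour came from separate mice. P-values for treatment and time measure the spread between these arrays. Those for tumours measure the spread between cultures of the same tumour, so they compare these 3 tumours only.

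Histones are the proteins around which DNA is wound. H2A, H2B, H3 and H4 form the nucleosome core and H1 binds the linker DNA between cores. Most histone genes lie in clusters, are transcribed mainly in S phase, and give mRNAs that end in a stem-loop in place of a poly(A) tail. Replication-independent variants such as H3.3, H2A.Z, macroH2A and H1.10 (gene H1f10) are made throughout the cell cycle from polyadenylated mRNAs. Histone tails are the substrates that histone deacetylases act on.

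Array medians lay between 7.10 and 7.21 on the log2 scale. Of 9 markers of medulloblastoma and cerebellar progenitors, 7 lay above the array median on all 12 arrays. Markers of other cells were also measured: 4 of 5 neuronal markers exceeded the array median on all arrays, with Gabra6, the marker of mature granule neurons, below the 25th percentile on all of them. Above the array median on all arrays were 0 of 4 astrocyte markers, 3 of 4 fibroblast and mural cell markers, 3 of 5 endothelial, 2 of 3 oligodendrocyte and 2 of 6 microglia and macrophage markers. The mean of the 6 microglia and macrophage markers was 7.08 to 7.25 in LBH589 at 6 h and 7.30 to 7.39 in DMSO at 6 h. At 12 h it was 7.08 to 7.32 in LBH589 and 7.21 to 7.76 in DMSO. For the other cell types, the ranges in LBH589 and DMSO overlapped at both times. Fibroblast and mural cell markers averaged 8.51 to 8.93 in LBH589 and 8.04 to 8.67 in DMSO at 12 h. Endothelial markers averaged 7.75 to 8.29 and 7.32 to 8.03, and progenitor markers 9.04 to 9.28 and 9.12 to 9.49, in the same groups. The part of any of these cell types in the histone values was not tested. In these bulk samples, fewer cells of a type and less RNA per cell cannot be told apart.

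LBH589 shifted histone probe sets in both directions, and more of them upward. At 6 h, 15 of the 76 passed the test, 13 higher and 2 lower in LBH589 than in DMSO. This was 19.7% of them, where 6.84% of all 41345 probe sets were called, 3.64% higher and 3.2% lower, and 9.32% of those listed with a gene. At 12 h, 24 passed, 18 higher and 6 lower, or 31.6%, where 8.54% of all probe sets were called, 3.98% higher and 4.56% lower, and 11.3% of those listed with a gene. The call was an adjusted p under 0.05 in limma. The median difference, LBH589 minus DMSO, was 0.21 at 6 h and 0.25 at 12 h over the histone probe sets, against -0.012 and -0.009 over all probe sets. Of the histone probe sets, 14 were called at both times, all in the same direction, and H1f6 was the 1 probe set called at 6 h alone. The overlap over all probe sets was not computed. When the tumour was fitted as a block, the counts were 32 at 6 h (17.0% of all probe sets) and 40 at 12 h (19.6%), and all calls made without the block were among them. The numbers depend on single tumours: without MP570, limma called 0 at 6 h (28 at an unadjusted p under 0.05) and 4 at 12 h, without MP525 2 and 6, and without MP567 3 and 10.

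**Figure D1:**
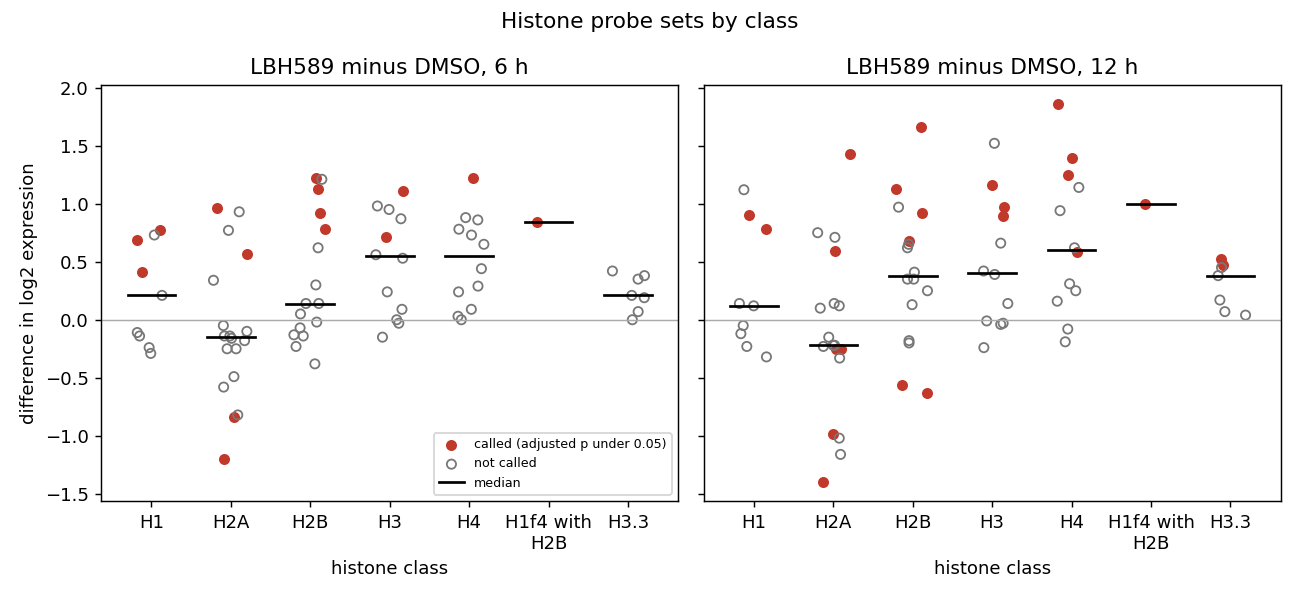
Difference in log2 expression, LBH589 minus DMSO, of 75 histone probe sets (1 pseudogene is left out) by histone class, at 6 h in the left panel and 12 h in the right. Each point is 1 probe set, filled where limma called it, and bars are class medians; H3 and H4 medians lie at 0.40 or above at both times, and the H2A medians lie at -0.15 and -0.22.

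Among linker histones, H1f10, the replication-independent H1.10 found in most cell types, was higher in LBH589 in every tumour at both times. Its values at 6 h were 11.78, 12.08 and 12.20 in LBH589 and 11.08, 11.27 and 11.40 in DMSO for MP525, MP567 and MP570 (this order is kept throughout). The 12 h values were 11.94, 12.20 and 12.47 in LBH589 and 11.39, 11.30 and 11.57 in DMSO. The groups did not overlap at either time, and MP570 was the highest tumour in all 4 groups. The difference was 0.77 ± 0.15 (SE) at 6 h (adjusted p = 0.0123), a 1.71-fold difference, and 0.78 ± 0.15 at 12 h (adjusted p = 0.00958). At 6 h the call ended without either of 2 single arrays (adjusted p = 0.0584 at most), and at 12 h it held without each of the 12. Another probe set, which names H1f10 together with Gm5577, gave -0.29 and -0.23, neither called.

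H1f3, a clustered linker histone, had 9.24, 9.19 and 9.73 in LBH589 and 8.65, 8.85 and 8.59 in DMSO at 6 h. Its 12 h values were 9.56, 9.26 and 9.49 in LBH589 and 8.53, 8.39 and 8.67 in DMSO. All LBH589 arrays exceeded all DMSO arrays of their time. The differences were 0.69 ± 0.16 (adjusted p = 0.0253) and 0.90 ± 0.16 (adjusted p = 0.00552), the first lost without any of 3 single arrays (adjusted p = 0.0887 at most). H1f6, the testis-specific H1t, was 0.41 higher at 6 h (adjusted p = 0.0426), lost without any of 9 arrays (adjusted p up to 0.153), and differed by 0.14 at 12 h. The other linker histones were not called. H1f2 (Hist1h1c), a widely expressed clustered H1, differed by 0.21 at 6 h (adjusted p = 0.542) and -0.05 at 12 h. H1f5, also clustered, gave -0.11 and -0.32, and the germ-cell genes H1f7 and H1f8 gave -0.24 and -0.14 at 6 h. H1f1 differed by 0.73 ± 0.43 at 6 h and 1.12 ± 0.43 at 12 h. It was called at 12 h with the tumour block (adjusted p = 0.00743, against 0.155 without).

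The bases before the start of H1f3 and H1f10 are shown because both genes were called at both times while their promoters have little in common. Sequences are RefSeq's (GRCm38.p6), 250 bases upstream of the start, 5′ to 3′ on the gene's strand. Capitals mark exact matches on either strand to 4 elements known from clustered histone promoters: AAACACA, the H1 box; CCAAT, the core of the NF-Y element; TATAAA, the form of the TATA box searched for; and ATTTGCAT, the octamer of H2B promoters.
H1f10, chr6:87981483-87981732, minus strand: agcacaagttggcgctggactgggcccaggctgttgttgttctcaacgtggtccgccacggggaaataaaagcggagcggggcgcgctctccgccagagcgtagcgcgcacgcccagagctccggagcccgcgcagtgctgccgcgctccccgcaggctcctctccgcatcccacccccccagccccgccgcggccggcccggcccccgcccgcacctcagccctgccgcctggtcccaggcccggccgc
H1f3, chr13:23554782-23555031, plus strand: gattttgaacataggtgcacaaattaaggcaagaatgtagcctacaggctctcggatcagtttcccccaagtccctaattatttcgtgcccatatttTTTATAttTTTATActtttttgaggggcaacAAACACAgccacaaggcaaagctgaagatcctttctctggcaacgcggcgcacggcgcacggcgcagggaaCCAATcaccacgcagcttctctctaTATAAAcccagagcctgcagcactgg
The H1f3 window holds an H1 box, a CCAAT and 3 TATAAA matches, and the H1f10 window holds none of the 4 and is 75.2% G and C, against 47.6% for H1f3. Of the 30 histone genes that a probe set names alone, 27 have a RefSeq promoter. The H1 box is in 4 of the 8 H1 promoters, among them H1f2, H1f3, H1f5 and H1f6, and in 6.25% of all 32851 promoters of this length. Of these, H1f2 and H1f5 were not called. The part of the H1 box in the differences was not tested.

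**Figure D2:**
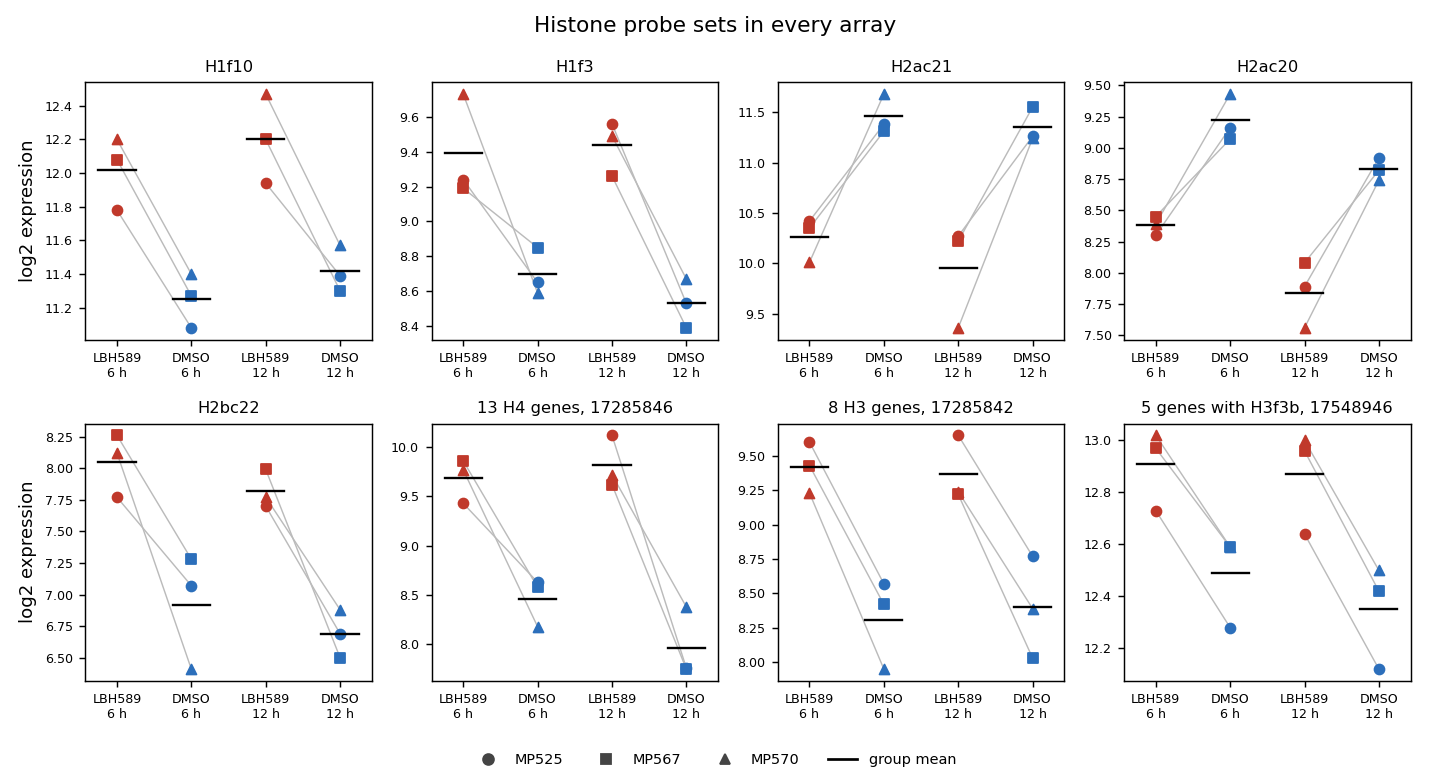
Log2 expression of 8 histone probe sets on each array, LBH589 (red) and DMSO (blue) at 6 and 12 h, with 1 marker shape per tumour, lines joining arrays of a tumour and bars for group means. LBH589 arrays lie above all DMSO arrays of their time in 6 panels and below them for H2ac21 and H2ac20; vertical scales differ between panels and do not start at 0.

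H2A was the class with the most calls in the downward direction. Of 18 probe sets, 2 were higher and 2 lower at 6 h, and 2 were higher and 4 lower at 12 h. Both genes called lower at both times, H2ac21 (Hist2h2ab) and H2ac20 (Hist2h2ac), lie in the small cluster on chromosome 3. H2ac21 had 10.42, 10.35 and 10.01 in LBH589 and 11.38, 11.31 and 11.68 in DMSO at 6 h. After 12 h the values were 10.27, 10.22 and 9.36 in LBH589 and 11.26, 11.55 and 11.24 in DMSO. All LBH589 arrays lay below all DMSO arrays, and the lowest value was that of MP570 in LBH589 at 12 h. The difference was -1.20 ± 0.22 at 6 h (2.29-fold lower, adjusted p = 0.00921) and -1.40 ± 0.22 at 12 h (2.64-fold lower, adjusted p = 0.00351). A second probe set of H2ac21, with a mean of 5.98 that is near the 25th percentile of an array, gave -0.18 and 0.10 and was not called.

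H2ac20 had 8.30, 8.45 and 8.39 in LBH589 and 9.16, 9.07 and 9.43 in DMSO at 6 h. Its 12 h arrays read 7.89, 8.08 and 7.56 in LBH589 and 8.92, 8.82 and 8.74 in DMSO. The groups again did not overlap. It differed by -0.84 ± 0.14 (adjusted p = 0.00614) and -0.98 ± 0.14 (adjusted p = 0.00226). A brighter set that names H2ac20 with H2ac18 and H2ac19 had a mean of 13.24, and another identifier repeats its values. That set gave -0.14 and -0.22, called neither with nor without the tumour block. The single-gene sets of H2ac21 and H2ac20 called lower kept their calls at both times without each single array. Leaving out a whole tumour, H2ac21 kept its call at 12 h in all 3 cases (adjusted p = 0.0463 at most), and H2ac20 lost it without MP525 (0.0656).

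These promoters are shown because the 2 genes face each other, with starts 995 bases apart on opposite strands, and fell together.
H2ac21, chr3:96219635-96219884, plus strand: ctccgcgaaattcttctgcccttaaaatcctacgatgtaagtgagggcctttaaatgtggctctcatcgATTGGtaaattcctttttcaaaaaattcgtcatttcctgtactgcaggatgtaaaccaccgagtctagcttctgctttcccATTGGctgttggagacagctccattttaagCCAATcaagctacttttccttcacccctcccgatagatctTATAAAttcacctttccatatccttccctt
H2ac20, chr3:96220881-96221130, minus strand: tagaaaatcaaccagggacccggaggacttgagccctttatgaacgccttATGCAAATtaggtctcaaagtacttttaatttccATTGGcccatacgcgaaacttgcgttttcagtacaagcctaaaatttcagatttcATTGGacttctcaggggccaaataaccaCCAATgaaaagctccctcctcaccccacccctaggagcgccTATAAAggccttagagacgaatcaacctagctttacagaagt
Each window holds 3 CCAAT matches and a TATAAA, and the octamer occurs in that of H2ac20 alone of the pair. CCAAT is in 20 of the 27 histone promoters and 33.8% of all promoters, and TATAAA in 13 of 27 and 12.4%. H1f3, printed above, has both elements and was higher in LBH589. The part of these elements in the differences was not tested.

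The several-gene H2A sets went both ways. A set naming 12 genes of chromosome 13, present under 2 identifiers with the same values, was lower by 0.25 ± 0.07 at 12 h (adjusted p = 0.0478; 0.0521 at 6 h). That call was lost without any of 11 of the 12 single arrays. Other sets name 10 of these 12 genes. Probe set 17285677 was 0.96 ± 0.25 higher at 6 h (adjusted p = 0.0419, lost without any of 9 single arrays, 0.13 at most) and 1.43 ± 0.25 higher at 12 h (adjusted p = 0.00513), and probe set 17291204 was 0.57 and 0.59 higher. Another, 17285867, gave -0.49 and -1.16 and was called at 12 h with the block alone (adjusted p = 0.00292, against 0.0683 without). The annotation gives 17285677, 17291204 and 17285867 the same 10 names, and so does not say which gene each reads. H2ac12, below the 25th percentile on all arrays, gave -0.82 at 6 h, called with the block alone (adjusted p = 0.0251, against 0.0734), and 0.12 at 12 h, not called.

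Of 16 H2B probe sets, 4 were higher and 0 lower at 6 h, and 4 were higher and 2 lower at 12 h. H2bc22 (Hist1h2bp) had 7.77, 8.26 and 8.12 in LBH589 and 7.07, 7.28 and 6.41 in DMSO at 6 h. Its 12 h values were 7.70, 7.99 and 7.77 in LBH589 and 6.69, 6.50 and 6.88 in DMSO. The groups did not overlap, and the lowest array was MP570 in DMSO at 6 h. It was 1.13 ± 0.21 higher at 6 h (2.18-fold, adjusted p = 0.00992) and 1.13 ± 0.21 higher at 12 h (adjusted p = 0.00819), and kept both calls without each single array. H2bc14 was 0.92 ± 0.24 higher at both times (adjusted p = 0.0442 and 0.0371), lost without any of 8 and of 7 single arrays, with adjusted p up to 0.147 and 0.128. H2bc9 was 0.62 ± 0.20 higher at both times and called only with the block (adjusted p = 0.0402 and 0.0359, against 0.1 and 0.088).

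A set naming H2bc15, H2bc13, H2bc11 and H2bc7 gave the largest called H2B differences, 1.22 ± 0.27 at 6 h (adjusted p = 0.0191, lost without any of 4 single arrays, 0.0823 at most) and 1.66 ± 0.27 at 12 h (3.17-fold, adjusted p = 0.00336). It had 8.95, 10.10 and 9.90 in LBH589 and 8.33, 8.72 and 8.24 in DMSO at 6 h. After 12 h it read 9.63, 9.77 and 9.81 in LBH589 and 7.92, 7.91 and 8.39 in DMSO. Another set naming the same 4 genes, with a mean of 13.87, gave -0.14 and -0.18, called lower with the block alone (adjusted p = 0.0476 and 0.0121, against 0.187 and 0.0677). A further set with these names, with a mean of 8.02, gave 0.05 and 0.13, called neither with nor without the block. H2bc12 and H2bc3, the single-gene sets that fell at 12 h, differed by -0.56 ± 0.13 (adjusted p = 0.0258) and -0.63 ± 0.17 (adjusted p = 0.0427). H2bc12 had 12.51, 12.35 and 12.06 in LBH589 at 12 h and 12.96, 12.77 and 12.87 in DMSO at 12 h. Both lost the call without any of 5 (H2bc12) or 10 (H2bc3) single arrays, with adjusted p up to 0.0913 and 0.143. The octamer, known as an H2B element, is in 5 of 7 H2B promoters, 3 of 6 H2A promoters, 0 of 6 H4 promoters and 1.6% of all promoters. H2bc12, H2bc3 and H2bc14 carry it, and H2bc22 lacks it in this window. The part of the octamer in the differences was not tested.

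No H3 probe set names 1 gene. Of the 12, 2 were higher at 6 h and 3 at 12 h, with none lower. Probe set 17285842, which names 8 H3 genes of chromosomes 13 and 3, had 9.60, 9.43 and 9.23 in LBH589 and 8.57, 8.42 and 7.95 in DMSO at 6 h. Its 12 h arrays gave 9.65, 9.22 and 9.24 in LBH589 and 8.77, 8.03 and 8.39 in DMSO. Every LBH589 array exceeded every DMSO array. The differences were 1.11 ± 0.22 (adjusted p = 0.0115) and 0.97 ± 0.22 (adjusted p = 0.018), lost without 1 array at 6 h (adjusted p = 0.0504) and without any of 3 at 12 h (0.0673 at most). Probe set 17291183, naming the same 8 genes, was 0.71 and 0.89 higher (adjusted p = 0.0275 and 0.00766). Its 6 h call was lost without any of 5 single arrays (0.0991 at most). Other sets with these 8 names were not called without the block. Of these, 17285871 gave 0.56 and 0.66 and was called at both times with the block. Sets 17291222 (0.95 and 0.42) and 17408015 (0.53 and 0.39) were called with the block at 6 h alone. Sets 17285825 (-0.03 and 0.14) and 17400559 (-0.15 and -0.24) were not called with it either.

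A set naming H3c10, H3c1, H3c11 and H3c8 (17285680) had 9.39, 11.02 and 9.87 in LBH589 and 8.36, 9.31 and 8.05 in DMSO at 12 h. The difference of 1.52 ± 0.53 was called with the tumour block alone (adjusted p = 0.000177, against 0.114). The tumours also stood apart here, with means over 4 arrays of 8.81, 10.15 and 9.02. Other sets with these 4 names differed among themselves. Probe set 17291233 was 1.16 ± 0.31 higher at 12 h (adjusted p = 0.0432), a call lost without any of 8 single arrays (0.132 at most). At 6 h it gave 0.98, called with the block alone. Sets 17285821 (0.24 and -0.04) and 17291008 (0.09 and -0.03) were called neither with nor without the block. Probe set 17400555, which names the 8 H3 genes given above and had a mean of 11.21, gave 0.00 and -0.01.

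H4 held the largest difference among all histone probe sets at 12 h. Of its 12 probe sets, 1 was higher at 6 h and 4 at 12 h, with none lower, and the class medians were 0.54 and 0.60. Probe set 17285846, which names 13 H4 genes, had 9.43, 9.86 and 9.77 in LBH589 and 8.63, 8.58 and 8.18 in DMSO at 6 h. The 12 h arrays read 10.12, 9.62 and 9.72 in LBH589 and 7.76, 7.75 and 8.38 in DMSO. No DMSO array came within the range of the LBH589 arrays. It was 1.22 ± 0.21 higher at 6 h (2.34-fold, adjusted p = 0.0059) and 1.86 ± 0.21 higher at 12 h (3.63-fold, adjusted p = 0.00062). It kept its call without each single array at both times and, at 12 h, also without each tumour (adjusted p = 0.03 at most). At 6 h it lost the call without MP567 (0.0703) or MP570 (0.0949). Other sets with the same 13 names were less firm. Probe set 17291208 gave 0.65 and 1.39, called at 12 h (adjusted p = 0.024) and lost without any of 5 single arrays (0.0868 at most). Sets 17291019 (0.86 and 1.14) and 17291180 (0.73 and 0.94) were not called without the block (adjusted p = 0.0593 and 0.0909 at 12 h). Both were called with it at 12 h.

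H4c1 had 9.13, 9.45 and 8.59 in LBH589 and 7.83, 8.07 and 7.52 in DMSO at 12 h. It was 1.25 ± 0.26 higher at 12 h (adjusted p = 0.0129), with adjusted p = 0.0555 without MP570 in DMSO at 12 h. At 6 h it gave 0.78 (adjusted p = 0.11; 0.00178 with the block). H4c14 was 0.58 higher at 12 h (adjusted p = 0.0487), a call lost without any of 9 single arrays (0.161 at most). H4c12, with a mean of 13.60, gave 0.03 and -0.08, and H4c17 gave 0.00 and -0.19. H4c8 and H4c2, with means of 6.13 and 4.57, were not called.

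A set naming the linker gene H1f4 together with 3 H2B genes was 0.84 ± 0.16 higher at 6 h (adjusted p = 0.0116) and 1.99-fold higher at 12 h (adjusted p = 0.00392). Its LBH589 arrays read 9.75, 9.67 and 9.84 at 6 h, against 9.02, 8.96 and 8.78 in DMSO. The 6 h call was lost without 1 array, MP570 in LBH589 at 6 h (0.0514). The 1 pseudogene, H2af-ps2, gave -0.25 and -0.06.

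The replication-independent H3.3 genes, H3f3a and H3f3b, encode the same protein, which replaces H3 outside S phase. All 7 of their probe sets had differences of 0 or above at both times, with 0 called by limma at 6 h (3 at an unadjusted p under 0.05, and 3 with the block) and 2 at 12 h. Probe set 17548946, which names H3f3b with 4 other genes, had 12.73, 12.97 and 13.02 in LBH589 and 12.28, 12.59 and 12.59 in DMSO at 6 h. MP525 was the lowest tumour in both groups, and the groups did not overlap. At 12 h the difference was 0.52 ± 0.14 (adjusted p = 0.0407, and 7.1e-05 with the block). At 6 h it was 0.42, called only with the block (adjusted p = 0.000248, against 0.108). Probe set 17548283, with the same names, was 0.47 ± 0.11 higher at 12 h (adjusted p = 0.0218). Both calls were lost without single arrays, 9 and 3 of them. Other sets with the same names were not called without the block. Of these, 17272095 gave 0.38 at both times and was called at both with the block. Probe set 17258521 gave 0.21 and 0.45, called with the block at 12 h alone. Probe set 17230469 gave 0.00 and 0.04 and was not called with the block either. A set naming H3f3a with Gm12657 gave 0.07 at both times and a second set with those names gave 0.19 and 0.17, none called.

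Another 6 genes, all H2A variants, lie outside the name pattern, because the annotation uses their newer symbols. H2az2, one of the pair of genes for H2A.Z, a variant of promoters and enhancers, had 11.67, 11.76 and 11.76 in LBH589 and 10.83, 11.13 and 11.12 in DMSO at 6 h. It was 0.70 ± 0.11 higher at 6 h (adjusted p = 0.00327) and 0.72 ± 0.11 higher at 12 h (adjusted p = 0.0025). Macroh2a2, which encodes a variant linked to repressed chromatin, had 7.68, 8.09 and 7.64 in LBH589 and 8.94, 8.63 and 8.91 in DMSO at 6 h. It was lower by 1.02 ± 0.16 on the log2 scale at 6 h (2.03-fold, adjusted p = 0.00324), and its difference at 12 h was -0.78 ± 0.16 (adjusted p = 0.0109). Their closest relatives were not called: H2az1 gave -0.17 and -0.38 (adjusted p = 0.479 and 0.06, the second 0.0165 with the block), and Macroh2a1 gave 0.00 and -0.17. H2ax, whose product is phosphorylated at DNA breaks, gave -0.05 and -0.06, and H2aj gave -0.12 and 0.23. H1f0 has no probe set of its own and was not analysed here.

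**Figure D3:**
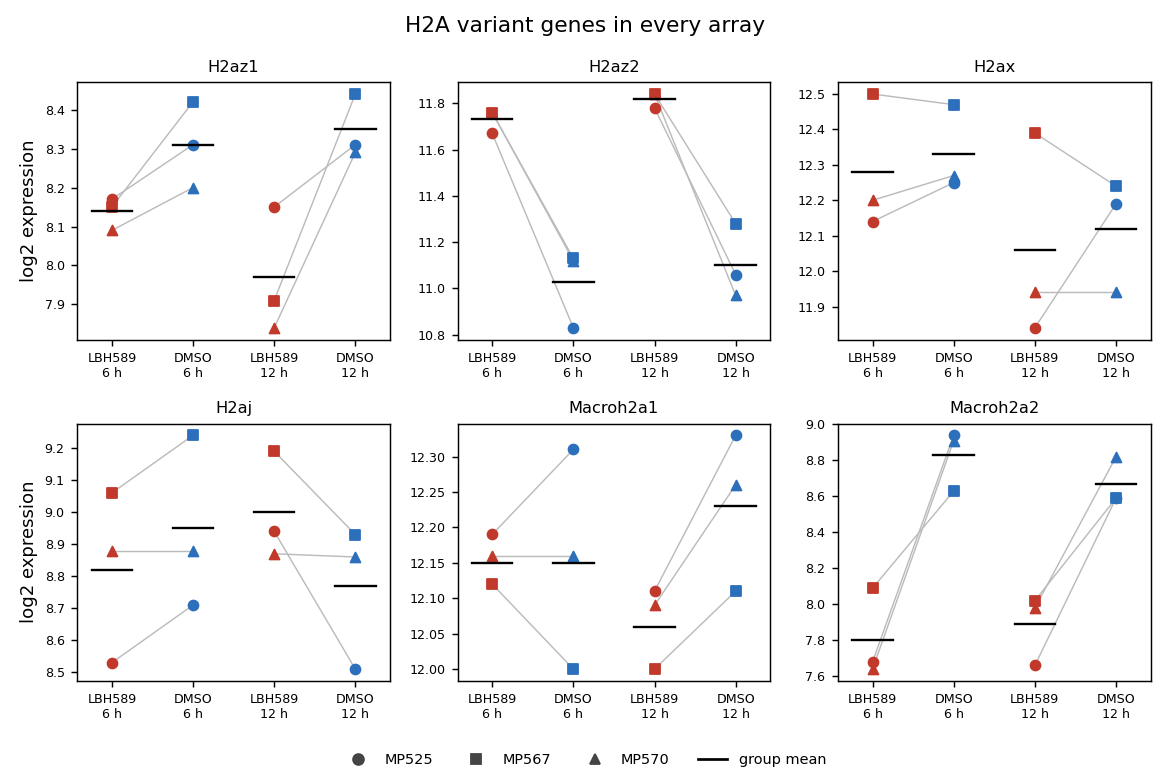
Log2 expression of 6 H2A variant genes on each array, LBH589 (red) and DMSO (blue) at 6 and 12 h, with 1 marker shape per tumour, lines joining arrays of a tumour and bars for group means. LBH589 arrays lie above all DMSO arrays of their time for H2az2 and below them for Macroh2a2; vertical scales differ between panels and do not start at 0.

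Among clustered genes, the direction of the difference went with the brightness of the probe set. Brightness is a property of the probes as well as of the RNA, so it is given here without ranking the genes, and its part in the differences was not tested; the bins were chosen after the values were seen. Of the 61 probe sets of clustered genes, 10 had a mean of 12 or more over the 12 arrays, and 2 of these repeat another's values. Among them 9 had a negative difference at 6 h and 10 of 10 at 12 h, with medians of -0.14 and -0.22. Limma called 0 of these at 6 h (4 at an unadjusted p under 0.05) and 3 at 12 h, all lower and 2 of them with identical values. The H3.3 sets 17548283, 17548946 and 17548518, with means of 13.07, 12.65 and 12.79, had differences of 0 or above: 0.35 and 0.47, 0.42 and 0.52, and 0.07 and 0.07. The 13 clustered sets with means from 10 to under 12 had medians of -0.02 and -0.05, with 1 called higher and 1 lower at 6 h and 1 higher and 2 lower at 12 h. The 25 with means from 8 to under 10 had 9 called higher and 1 lower at 6 h, and 12 higher and 1 lower at 12 h, with medians of 0.69 and 0.90. The 13 with lower means had 1 call at 6 h and 2 at 12 h, all higher. In all, 71 of the 76 histone probe sets lay above the array's 25th percentile on at least 3 arrays, and the 5 others included H2bc1, H2ac12 and H4c2. By location, sets whose histone genes are all on chromosome 13 (45) had 9 higher and 0 lower at 6 h, and 10 higher and 4 lower at 12 h. Those on chromosome 3 alone (8) had 0 higher and 2 lower at 6 h, and 1 higher and 2 lower at 12 h.

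**Figure D4:**
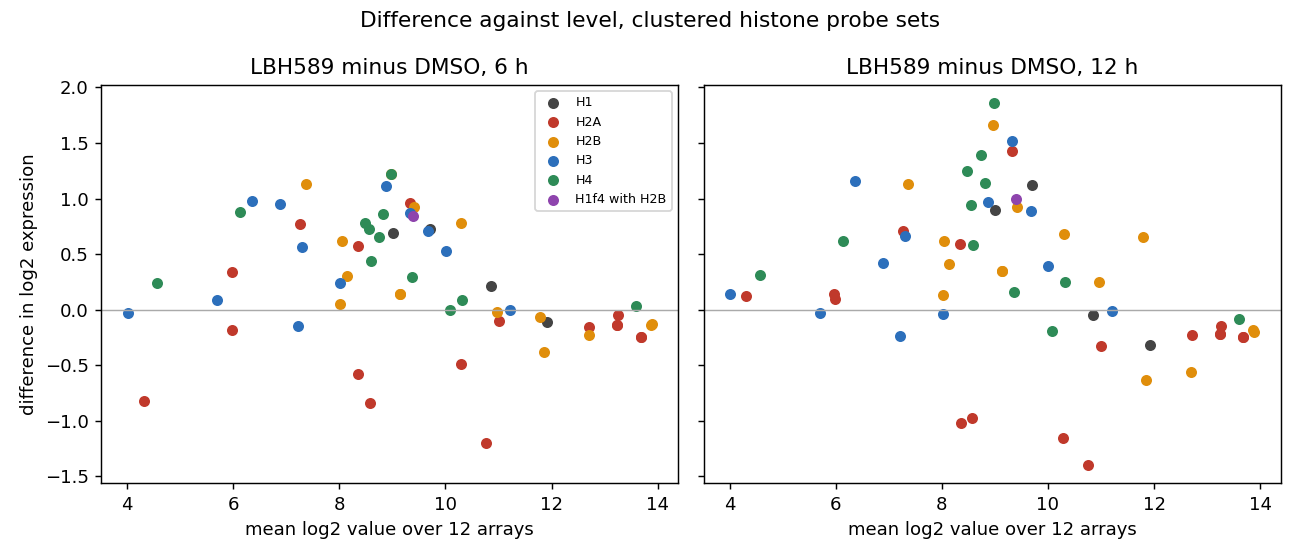
Difference in log2 expression, LBH589 minus DMSO, against the mean log2 value over 12 arrays for the 61 probe sets of clustered histone genes, coloured by class, at 6 h in the left panel and 12 h in the right. All 10 sets with means of 12 or more lie below 0 at 12 h, and 23 of the 25 sets with means from 8 to under 10 lie above 0 at 6 h.

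Time changed the LBH589 effect of no histone probe set past the threshold. The difference between the effects at 12 h and 6 h was called for 0 of 76 (and 0.0% of all probe sets) in limma, and 1 had an unadjusted p under 0.05. That was H2ac12, at 0.95 ± 0.35 (adjusted p = 1), a probe set below the 25th percentile throughout. The 13-gene H4 set 17285846 came next, at 0.64 ± 0.30 (adjusted p = 1). In absolute size, 53 of the 76 differences were larger at 12 h than at 6 h, and the share over all probe sets was not computed. From 6 to 12 h in LBH589, 0 were called (0.0% of all probe sets) and 4 had an unadjusted p under 0.05. The smallest p was that of H2ac20, at -0.54 ± 0.14 (adjusted p = 0.658). From 6 to 12 h in DMSO, 0 were called (0.0121% of all probe sets). In this comparison 64 of 76 differences were negative, with a median of -0.13, against a median of 0.008 over all probe sets. An unadjusted p under 0.05 was found for 3 of the 76. H2ac20 was among these at -0.39 ± 0.14 (adjusted p = 1). The 12 h arrays of DMSO enter both this change and the LBH589 effect at 12 h.

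The tumours differed in 26 of the 76 histone probe sets (20.3% of all probe sets and 24.1% of those listed with a gene), in a limma F-test with the 4 groups in the model. Among these, MP567 was the highest tumour for 17, MP570 for 5 and MP525 for 4. The range between tumour means had a median of 0.63 and reached 2.99. The smallest p-values belonged to the 4-gene H3 set 17285680 (adjusted p = 0.000354), to 3 H3.3 sets (0.000699, 0.00123 and 0.00294) and to H2bc3 (0.00465). The H3.3 set 17548946 averaged 12.44 in MP525, 12.73 in MP567 and 12.78 in MP570. H2bc3 averaged 12.00, 11.95 and 11.61.

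The testis genes H2ac1 (Hist1h2aa) and H2bc1 (Hist1h2ba), which encode the H2A and H2B variants TH2A and TH2B of male germ cells, stood apart by 1 tumour. H2ac1 had 7.76, 11.17 and 7.68 in LBH589 and 7.44, 8.82 and 7.57 in DMSO at 6 h. At 12 h it had 7.42, 10.46 and 7.60 in LBH589 and 7.82, 8.06 and 7.32 in DMSO. In MP567 the difference was thus 2.35 at 6 h and 2.40 at 12 h, and in the other tumours it lay between -0.41 and 0.32. H2bc1 had 4.10, 8.45 and 3.71 in LBH589 and 3.08, 5.91 and 3.65 in DMSO at 6 h. At 12 h it had 4.14, 7.69 and 3.33 in LBH589 and 3.80, 4.52 and 3.93 in DMSO. It exceeded the 25th percentile of its array (5.94 to 6.04) only on the 2 MP567 arrays in LBH589, and on 0 of the 8 arrays of the other tumours. Over the 3 tumours the LBH589 differences were not called: 0.93 ± 0.96 and 0.75 ± 0.96 for H2ac1, and 1.21 ± 1.34 and 0.97 ± 1.34 for H2bc1. The tumours differed for both (adjusted p = 0.0135 and 0.00804). A term for treatment by tumour, added after the values were seen, called 3 of all 41345 probe sets (0.00726%) and 0 of the 76, of which 9 had an unadjusted p under 0.05. In limma this term had an adjusted p = 0.136 for H2ac1 and an adjusted p = 0.248 for H2bc1.

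**Figure D5:**
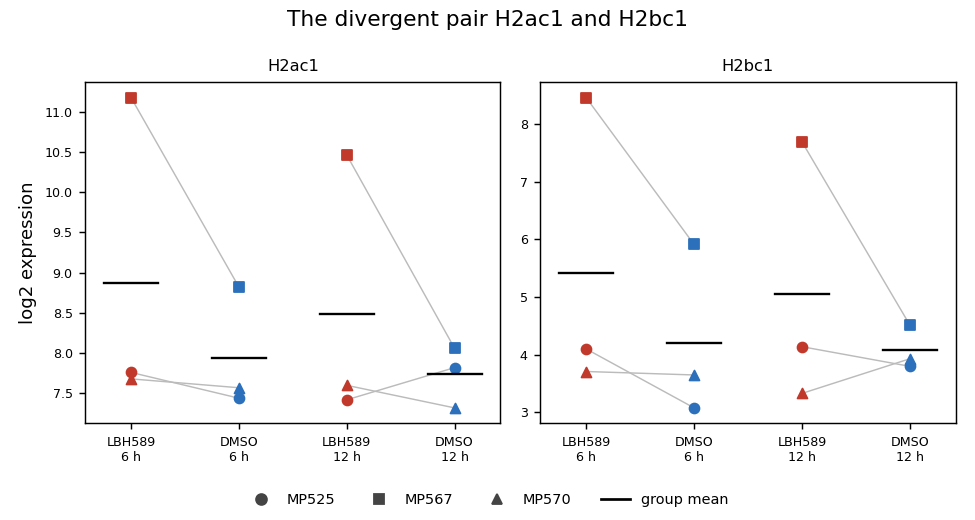
Log2 expression of H2ac1 and H2bc1 on each array, LBH589 (red) and DMSO (blue) at 6 and 12 h, with 1 marker shape per tumour, lines joining arrays of a tumour and bars for group means. The MP567 arrays in LBH589 lie at 11.17 and 10.46 for H2ac1 and at 8.45 and 7.69 for H2bc1, above all other arrays of each panel; vertical scales differ and do not start at 0.

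The upstream bases of H2ac1 are shown because they belong to both genes: the genes are transcribed away from each other from starts 281 bases apart, and 220 bases are common to their upstream windows.
H2ac1, chr13:23934187-23934436, plus strand: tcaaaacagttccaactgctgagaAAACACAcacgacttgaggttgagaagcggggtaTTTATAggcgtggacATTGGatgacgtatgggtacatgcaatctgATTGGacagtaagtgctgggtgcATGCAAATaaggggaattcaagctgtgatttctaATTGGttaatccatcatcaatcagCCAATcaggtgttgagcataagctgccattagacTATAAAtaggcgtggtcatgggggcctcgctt
The window holds an H1 box, 4 CCAAT matches, 2 TATAAA and 1 octamer, counting both strands.

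Genes that make, process or place histones were taken from 3 lists. Over all probe sets, 3.64% were called higher and 3.2% lower at 6 h, and 3.98% and 4.56% at 12 h. Of the probe sets listed with a gene, 9.32% at 6 h and 11.3% at 12 h were called in either direction. The shares called in the lists were 19.2% and 11.5% for processing, 23.3% and 33.3% for chaperones, and 16.0% and 24.0% for S phase genes. Of 26 genes for histone mRNA transcription and end processing, 2 were higher and 3 lower at 6 h, and 0 were higher and 3 lower at 12 h (medians 0.05 and -0.11). Coil, which encodes coilin of the Cajal body, averaged 7.79 in LBH589 and 8.53 in DMSO at 6 h, a difference of -0.74 ± 0.17 (adjusted p = 0.0246), and -0.74 again at 12 h. Cstf2, a cleavage stimulation factor that also acts on histone transcripts, differed by -0.70 ± 0.10 and -0.90 ± 0.10 (adjusted p = 0.00205 and 0.000554). Cpsf2, part of the cleavage complex, differed by -0.63 and -0.77. Nelfe, of the negative elongation factor, was 0.61 higher at 6 h (adjusted p = 0.0361), as was Tut7, a terminal uridylyl transferase, by 0.39 (adjusted p = 0.0332).

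Of 30 histone chaperones and exchange factors, 2 were higher and 5 lower at 6 h, and 1 was higher and 9 lower at 12 h (medians -0.07 and -0.22). Srcap, the ATPase of a complex that deposits H2A.Z, averaged 10.51 in LBH589 and 11.53 in DMSO at 6 h, a difference of -1.02 ± 0.14 (adjusted p = 0.00183), and -1.10 ± 0.14 at 12 h. Atrx, which deposits H3.3 with Daxx, differed by -0.78 ± 0.12 and -0.87 ± 0.12 (adjusted p = 0.00328 and 0.00161). Cabin1, of the H3.3 chaperone complex HIRA, was 0.76 ± 0.11 higher at 6 h (adjusted p = 0.00299) and 0.68 higher at 12 h. Nasp, a chaperone of soluble H3 and H4, and Cenpa, the centromeric H3 variant, differed by -0.81 and -0.78 at 12 h (adjusted p = 0.0215 and 0.00367).

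Of 25 S phase genes, 1 was higher and 3 lower at 6 h, and 0 were higher and 6 lower at 12 h, with medians of -0.23 and -0.55. Rrm2, a subunit of ribonucleotide reductase, averaged 10.42 in LBH589 and 11.27 in DMSO at 6 h, and 10.08 in LBH589 and 11.21 in DMSO at 12 h. It differed by -0.85 ± 0.21 (adjusted p = 0.0309) and -1.14 ± 0.21 (adjusted p = 0.00639), and Rrm1, the other subunit, by -0.42 and -0.80. The clustered histone genes, which are also S phase genes, had medians of 0.21 and 0.25 over their 61 probe sets. These measures are unlike, since the S phase list takes for each gene the single-gene probe set with the highest mean. Clustered histone sets with means of 12 or more had medians of -0.14 and -0.22. Those with means from 8 to under 10 had 0.69 and 0.90. The difference between the lists was not tested. With the tumour block, the S phase list had 9 called lower at 6 h and 18 at 12 h, the chaperones 11 and 14, and the processing genes 5 and 7. That block called 17.0% of all probe sets at 6 h and 19.6% at 12 h, in either direction.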

How the data were processed

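Total RNA was measured on 12 arrays, 1 per tumour, treatment and time. The authors deposited 1 log2 value for each probe set and array, where base 2 is inferred from the range. Background correction, normalization and summarization of the probes are not stated by the labels. The submitters' processing notes name Agilent Feature Extraction 10.7.3.1. No further scaling was applied. Gene names come from the platform annotation, and locations and promoters from RefSeq tables (GRCm38.p6).

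One limma 3.58.1 fit (R 4.3.3, lmFit, eBayes with trend) of the 4 group means over all 41345 probe sets, with 8 residual degrees of freedom and no level filter, gave every comparison between treatments and times. Two-sided p-values were adjusted over all probe sets (Benjamini-Hochberg) and called under 0.05. The tumours were compared by adding them to this fit, which leaves 6 residual degrees of freedom. The labels say which arrays share a tumour, which pairs them: deviations from group means, over all probe sets, correlated at 0.0284 to 0.557 in 18 pairs of the same tumour and at -0.447 to 0.141 in 36 others. The scripts were tested on simulated data. The labels give no scan date or other batch. Arrays have no count of reads, and their number limits the precision.

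The histone probe sets, the gene lists and the tests were chosen with earlier results of these data known. The rule named the single-gene sets of replication-independent variants and Hist1h1c. It also named up to 4 sets of each class with the largest mean LBH589 effect, among single-gene and several-gene sets. Those with the smallest p for times (3) and tumours (5) were named too. Not all of these sets are described, and some called sets enter the counts alone. From each list, some of its called genes are given. The bright sets and further called sets were added to these with their values known. The settings varied were a tumour block (fixed, or random), quantile scaling, median centring, a filter at the 25th percentile on at least 3 arrays, listed probe sets alone, no trend, 1 probe set a gene, and leaving out each array and each tumour.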

Additional observations from a re-analysis of the deposited data

How the results depend on the processing

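With the tumour as a fixed block, the fit raised the histone probe sets called from LBH589 to 32 at 6 h and 40 at 12 h, against 15 and 24 without it, and as a random block to 28 and 38; no call made without the fixed block was lost under it. With 1 probe set a gene and the filter, 7 were called at 6 h, 11 at 12 h and 12 between tumours, out of 27 histone genes that remain. The other settings stayed within 1.5 times: 12 to 20 at 6 h and 18 to 29 at 12 h. Leaving out single arrays or whole tumours gave 0 to 15 calls at 6 h, 4 to 22 at 12 h, 13 to 30 between tumours, and 0 for the comparisons of times. Without each single array, 6 of the 15 calls at 6 h and 11 of the 24 at 12 h were kept. Without each tumour as well, 0 and 2 were kept (the 13-gene H4 set 17285846 and H2ac21). Among the values of named probe sets, 183 lost their call and 13 gained one when arrays were left out, and 11 lost and 49 gained one under the other settings; none changed direction while called. With 3 arrays a group and no detection p-values, differences in dim probe sets, and in bright ones near the top of the range, could not be read against background or saturation.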
